A study of Homo sapiens with 21 samples.

Results

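The MHC class II genes *HLA-DRA*, *HLA-DRB1*, *HLA-DPA1*, *HLA-DPB1*, *HLA-DMA* and *HLA-DMB* were followed together with *CD74* and *CIITA*, 8 of the 58870 genes measured. They were chosen by name as genes of the class II pathway, with earlier results of these data known. The RNA-seq data hold 7 groups of 3 libraries each, all from the human melanoma line A375, which carries mutant BRAF, or from lines derived from it. A375 parental cells carried no knockout and were not sequenced with inhibitors. gSOX10 #2 and gSOX10 #4 are CRISPR/Cas9 knockouts of SOX10, a transcription factor of neural crest cells and melanocytes. They were made with separate guides, and each is 1 clone from a single puromycin-selected cell, without a control clone. For the second of these clones, the library titles carry a clone name that the study uses for another melanoma line, MeWo, while the labels name A375. Its libraries were kept as labelled, and this doubt applies to every gSOX10 #4 value. CRT34 and CRT35 were grown out of A375 tumors in mice that tolerated inhibition of BRAF together with MEK. In their Combo groups PLX4720 (against BRAF, 1 µM) and PD0325901 (against MEK, 35 nM) were present, and their DMSO groups were off both drugs for a time that the labels leave out. Whether libraries of 1 group are separate cultures is not stated, so p-values measure the spread between these libraries, which may be technical.

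MHC class II molecules are pairs of an alpha and a beta chain that show peptides from the endosome to CD4+ T cells. CIITA is the co-activator that sets their transcription. It does not bind DNA itself but sits on the RFX, CREB and NF-Y factors that hold the X and Y boxes of class II promoters. CD74, the invariant chain, guides new class II molecules to the endosome and fills their groove, and HLA-DM, made of HLA-DMA and HLA-DMB, exchanges the remnant of CD74 for peptide. Class II is a property of antigen-presenting leukocytes, and melanoma cells are among the tumor cells that can express it.

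The 6 HLA genes lie within the class II region of chromosome 6, between bases 32439878 and 33089696 of GRCh38 in the GENCODE annotation, with *CD74* on chromosome 5 (150401637 to 150412969) and *CIITA* on chromosome 16 (10866222 to 10943021). RefSeq (GRCh38.p14) promoters, 250 bases before the annotated start, were matched for 6 of the 8 genes, leaving *HLA-DRA* and *CIITA* without one. They were searched on both strands for the core of the X box, ACNGATG, and of the Y box, ATTGG or CCAAT on the other strand, which are the landing sites of the factors that CIITA sits on. Printed here are the bases from 130 to 31 before the start of 3 genes that carry an X box core, followed by *HLA-DPB1*, which does not. Neither *HLA-DPA1* promoter held a match of either core. The X box core of *CD74* began 209 bases before the start on the other strand, outside that stretch. Also outside it were Y box cores on the other strand of *HLA-DRB1*, 195 bases before the start, and *HLA-DMB*, 22 bases before it. Capitals mark the matches of either core. The windows are chr6:32589879-32589978, chr6:32953128-32953227 and chr6:32941059-32941158, all on the minus strand, and chr6:33075860-33075959 on the plus strand.
HLA-DRB1: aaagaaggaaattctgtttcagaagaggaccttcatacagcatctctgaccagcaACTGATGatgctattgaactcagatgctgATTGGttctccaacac
HLA-DMA: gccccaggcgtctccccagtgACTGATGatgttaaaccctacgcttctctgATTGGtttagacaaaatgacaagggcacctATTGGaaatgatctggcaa
HLA-DMB: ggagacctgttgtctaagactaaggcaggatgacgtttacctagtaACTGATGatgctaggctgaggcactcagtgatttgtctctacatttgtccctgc
HLA-DPB1: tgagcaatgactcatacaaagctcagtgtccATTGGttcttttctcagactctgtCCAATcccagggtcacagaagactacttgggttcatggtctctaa
In *HLA-DRB1* the X box core began 75 bases and the Y box core 46 bases before the start, and in *HLA-DMA* they began 109 and 79 bases before it. Of all 35116 promoters, 6.35% held an X box core, 32.0% a Y box core and 0.105% an X box core followed on the same strand by a Y box core 20 to 40 bases on. Among 14 promoters of 13 genes, the class II chain genes and *CD74*, 6 held an X box core, 12 a Y box core and 4 that arrangement. The 4 were those of *HLA-DRB1*, *HLA-DMA*, *HLA-DRB5* and *HLA-DQB1*. A match is a string of letters and not a shown binding site, and a missing match does not show that a site is absent. Whether matches go with the changes below was not tested.

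The deposited values are normalized read counts, put on a common scale between libraries by the authors, and estimated depth ran from 27.4 M to 75.8 M reads. CRT35 DMSO replicate 1 had the lowest depth. CRT34 Combo replicate 3 correlated slightly better with the CRT34 DMSO libraries (mean r = 0.969) than with its own group (0.964), and results that rest on either library are given without it. *SOX10* was read at 10348 to 12822 in parental cells, 392 to 517 in both knockout clones and 0 to 6.32 in the CRT libraries. Of the lineage markers, *S100B* was read in parental cells (365 to 683), while *MLANA* was listed at 0 in all 21 libraries. Of the 8 lineage markers 5 could be tested. *SOX10* and *S100B* were called lower in all 6 derived groups, *S100A1* in all but gSOX10 #4 and *PMEL* in gSOX10 #4 and CRT34 DMSO, while *MITF* was called higher in both Combo groups (log2 change 2.28 in CRT34 and 1.21 in CRT35). With quantile normalization *PMEL* was also called lower in gSOX10 #2 and CRT35 DMSO. Against parental cells, 7.35% to 10.2% of all genes were called lower and 11.8% to 20.1% higher. Levels of RNA from cultures do not tell fewer expressing cells from less RNA per cell.

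CIITA, the master regulator of the pathway, was highest in parental cells and lower in all 6 derived groups. Its values were 2597, 2138 and 1898 in the parental libraries, 632, 344 and 472 in gSOX10 #2 and 164, 176 and 203 in gSOX10 #4. In the tolerant lines it was read at 44.1, 14.7 and 16.5 in CRT34 DMSO and at 35.6, 73.1 and 106 in CRT34 Combo. For CRT35 the values were 22.1, 56.5 and 63.3 in DMSO and 89.9, 81.0 and 53.0 in Combo. No library of a derived group reached the parental range, the knockout clones did not overlap each other, and the 4 CRT groups lay below both clones with overlapping values among neighbors in the order of their means. On the log2(value + 1) scale *CIITA* fell by 2.22 in gSOX10 #2 (SE 0.44, adjusted p = 0.000551) and by 3.60 in gSOX10 #4 (SE 0.44, adjusted p = 4.86e-06). Without inhibitors it was 94.7-fold lower in CRT34 and 49.8-fold lower in CRT35. Adjusted p-values throughout are from limma over the 19290 genes kept, and a gene was called when its adjusted p was at most 0.05 and its fold change at least 2. *CIITA* shares 2424 of its 22553 exonic bases with *DEXI* on the opposite strand, and *DEXI* had group means between 827 in parental cells and 1382 in CRT35 Combo, so unstranded reads of that stretch could not be told apart.

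Among the 8 genes, the largest falls from parental cells were those of HLA-DR, the class II molecule most abundant on most cells that carry it. *HLA-DRA*, the alpha chain gene of HLA-DR, was read at 19192, 18513 and 18196 in the parental libraries and at 1819, 1355 and 1597 in gSOX10 #2. It was read at 76.9, 46.0 and 62.0 in gSOX10 #4, at 56.1, 50.1 and 30.5 in CRT34 DMSO and at 89.0, 48.1 and 60.5 in CRT34 Combo. CRT35 had 11.4, 10.9 and 14.0 in DMSO and 15.1, 13.3 and 24.996 in Combo. gSOX10 #2 thus held an intermediate level, 8.53% of the parental mean, while the other 5 groups held between 0.0650% and 0.354%. The fall was 11.8-fold in gSOX10 #2 (log2 change -3.56, SE 0.29, adjusted p = 3.24e-08), 304-fold in gSOX10 #4 (-8.25, SE 0.29, adjusted p = 4.06e-13) and 1429-fold in CRT35 DMSO (-10.48, SE 0.29, adjusted p = 3.97e-15).

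*HLA-DRB1*, a beta chain gene of HLA-DR, had parental values of 1792, 1751 and 1827 and values of 61.5, 37.4 and 65.0 in gSOX10 #2. It was listed at 0 in the 3 gSOX10 #4 libraries. CRT34 DMSO had 2.45, 0 and 2.27 and CRT34 Combo 8.78, 16.8 and 5.29, while CRT35 DMSO had 0, 0 and 1.01 and CRT35 Combo 4.22, 3.81 and 1.78. Outside parental cells and gSOX10 #2 these are few reads, since 1 read was estimated to be worth 0.824 to 2.28 in the 21 libraries. In gSOX10 #2 the gene was 33.1-fold lower than in parental cells (log2 change -5.05, SE 0.50, adjusted p = 3.53e-07). HLA class II genes are polymorphic and *HLA-DRB1* has close relatives, so reads of alleles unlike the reference can be lost or shared between copies, and its level against that of *HLA-DRA* is uncertain.

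HLA-DP behaved differently, and its alpha and beta chain genes differed from each other. *HLA-DPA1* had 10649, 10339 and 10005 in the parental libraries, 3897, 4458 and 4536 in gSOX10 #2 and 1639, 1642 and 1785 in gSOX10 #4. In the CRT libraries it stayed between 1501 and 2399. It was called lower in all 6 comparisons with parental cells, by 2.41-fold in gSOX10 #2 and by 4.72 to 6.54-fold in the other 5 groups (SE 0.11 on the log2 scale).

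*HLA-DPB1* was read at 1502, 1816 and 1845 in parental cells, at 1309, 1219 and 1213 in gSOX10 #2 and at 1529.6, 1006 and 1155 in gSOX10 #4. It stood at 1213, 891 and 1077 in CRT34 DMSO, at 537, 731 and 825 in CRT34 Combo, at 1373, 1414 and 1181 in CRT35 DMSO and at 954, 1267 and 1559 in CRT35 Combo. Parental and derived values overlapped in gSOX10 #4 and CRT35 Combo. The gene passed both thresholds only in CRT34 Combo (log2 change -1.32, SE 0.20, adjusted p = 2.87e-05), and its group means in the other 5 groups were 61.6% to 76.8% of the parental mean. Per kilobase of annotated exon, the parental means were 1797 for *HLA-DPA1* and 329.6 for *HLA-DPB1*, and in gSOX10 #4 they were 294 and 236. The genes overlap head to head and share 96 exonic bases on opposite strands. Transcript mixtures are not resolved in these values.

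HLA-DM fell unevenly. *HLA-DMB* had 1098, 970 and 881 in parental cells, 261, 257 and 341 in gSOX10 #2 and 38.0, 23.6 and 40.6 in gSOX10 #4. Its values were 7.04, 43.8 and 54.9 in CRT34 DMSO, 121, 87.7 and 35.2 in CRT34 Combo, 9.61, 9.75 and 5.596 in CRT35 DMSO and 36.3, 18.6 and 29.3 in CRT35 Combo. It was called lower in every group, from 3.44-fold in gSOX10 #2 (log2 change -1.78, SE 0.56, adjusted p = 0.0145) to 108-fold in CRT35 DMSO (-6.75, SE 0.56, adjusted p = 1.71e-08).

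*HLA-DMA*, its partner chain, had 2113, 2003 and 2083 in parental cells and 969.9, 1436 and 1556 in gSOX10 #2, a change of -0.67 on the log2 scale that was under the 2-fold threshold (SE 0.26, adjusted p = 0.0402). In gSOX10 #4 it had 372, 335 and 351. It was read at 276, 511 and 567 in CRT34 DMSO, at 1151, 1093 and 671 in CRT34 Combo, at 481, 329.9 and 381 in CRT35 DMSO and at 843, 648 and 618 in CRT35 Combo. All derived values lay below the parental ones. It was called lower in the other 5 groups, with log2 changes from -1.13 in CRT34 Combo to -2.55 in gSOX10 #4, and the call in CRT34 Combo was lost without its replicate 3 (log2 change -0.88, adjusted p = 0.0105). *HLA-DMA* shares 55 of 2520 exonic bases with the abundant gene *BRD2* on the opposite strand.

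*CD74*, the invariant chain gene, was read at 43281, 43381 and 50923 in the parental libraries and at 10069.9, 11139.7 and 11878 in gSOX10 #2. gSOX10 #4 had 3375, 2584 and 3072 and CRT34 DMSO had 4052, 2534 and 2355, which overlapped. CRT34 Combo had 1312, 801 and 1790.1, CRT35 Combo 1213, 782 and 1079, and CRT35 DMSO 913, 625 and 449. The fall ran from 4.16-fold in gSOX10 #2 (log2 change -2.05, SE 0.27, adjusted p = 9.93e-06) to 71.9-fold in CRT35 DMSO (-6.17, SE 0.27, adjusted p = 2.93e-12). Per kilobase of exon, parental cells held 10133 ± 969 of *CD74*, 14979 ± 409 of *HLA-DRA* and 98.0 ± 15.7 of *CIITA* (SD, n = 3). The group means in CRT35 DMSO were 146, 9.73 and 2.10 in the same order. The lengths used join the exons of all annotated transcripts, 4526 bases for *CD74*, 1244 for *HLA-DRA* and 22553 for *CIITA*. A single transcript can be shorter, so these levels do not rank the genes against each other.

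**Figure D1:**
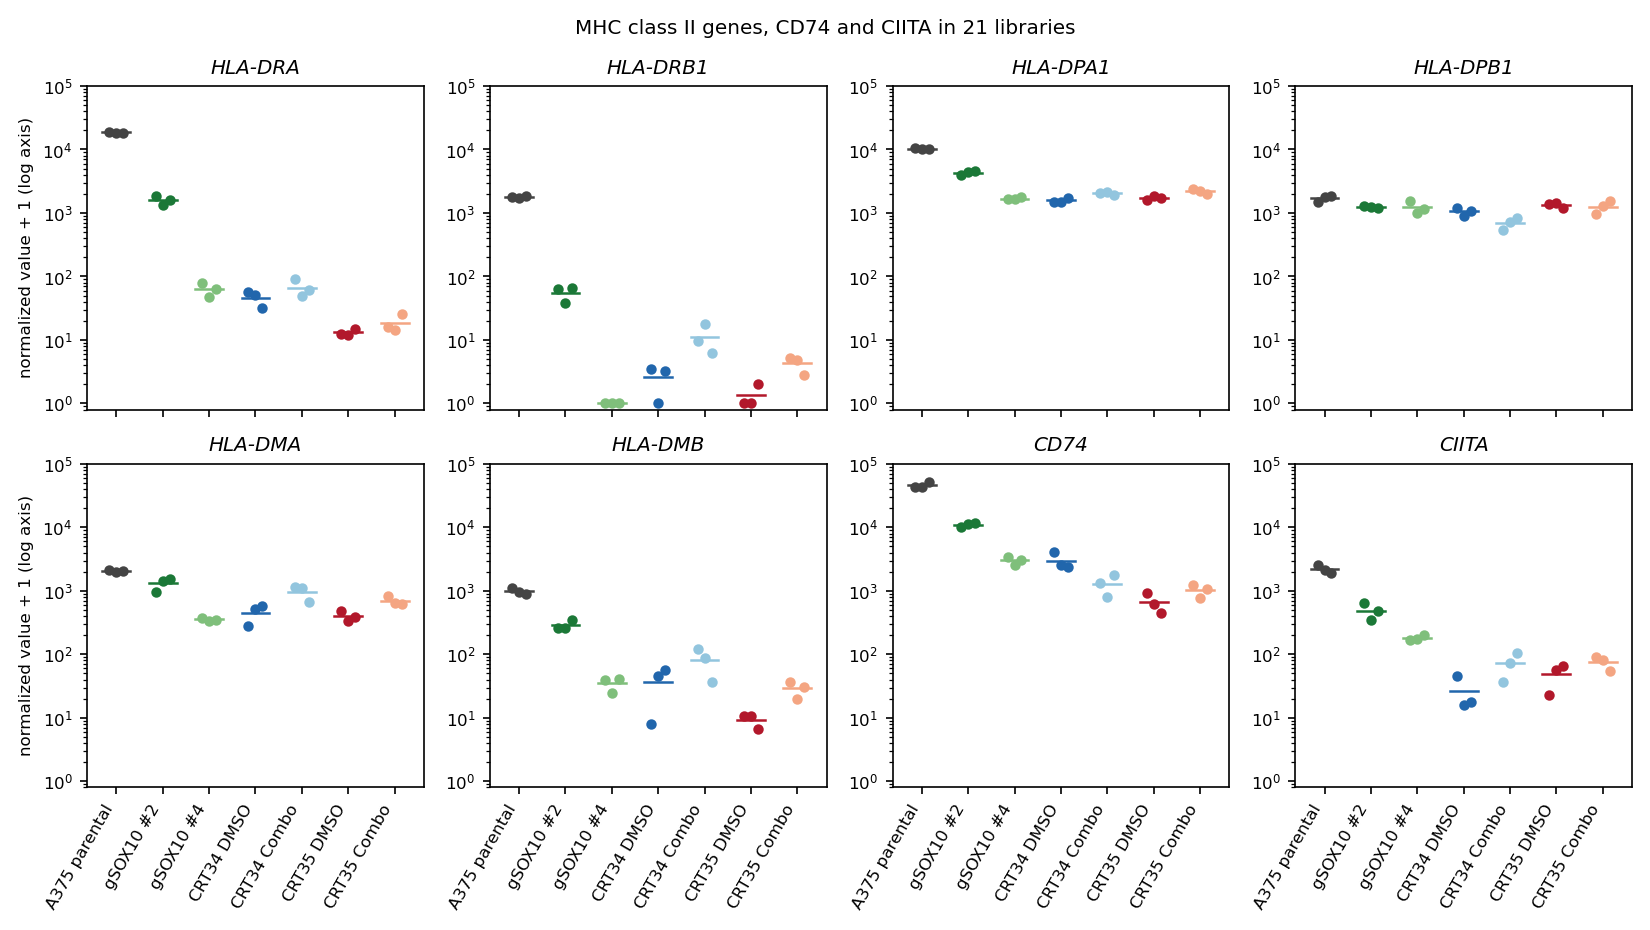
Normalized value plus 1 (log axis) of each of the 8 genes in the 21 libraries, where points are libraries and lines are group means. The parental mean was highest for each gene, with overlap only for *HLA-DPB1* in gSOX10 #4 and CRT35 Combo, gSOX10 #2 was intermediate for *HLA-DRA*, *HLA-DRB1*, *HLA-DPA1*, *HLA-DMB*, *CD74* and *CIITA*, and *HLA-DPB1* stayed between 537 and 1845 in all libraries.

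Each derived line was compared with the parental line to ask how class II genes differ where SOX10 is knocked out or absent in tolerance. All 8 genes passed the filter on low values, *HLA-DRB1* with 7 libraries at 10 or more. These were the libraries of parental cells and gSOX10 #2 and CRT34 Combo replicate 2 (16.8). *HLA-DRB1* was thus kept through the groups where it was high. Its calls in the other groups follow in part from the filter, and its place in the counts is a description only. In gSOX10 #2, 6 of the 8 were called lower, against 7.78% of all genes tested. In gSOX10 #4, 7 of 8 were called lower (8.91% of all genes). The counts were 7 in CRT34 DMSO (7.35%), 7 in CRT35 DMSO (7.98%), 8 in CRT34 Combo (8.09%) and 7 in CRT35 Combo (10.2%), and none of the 8 was called higher in any of them. Median log2 changes over the 8 genes were -1.92 in gSOX10 #2 and -3.76 in gSOX10 #4, and in the CRT groups they lay between -4.40 and -5.90. Medians over all genes lay between 0 and 0.05. The 6 comparisons share the same 3 parental libraries, so their similarity is not independent, and CRT Combo against parental cells combines line and drug.

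**Figure D2:**
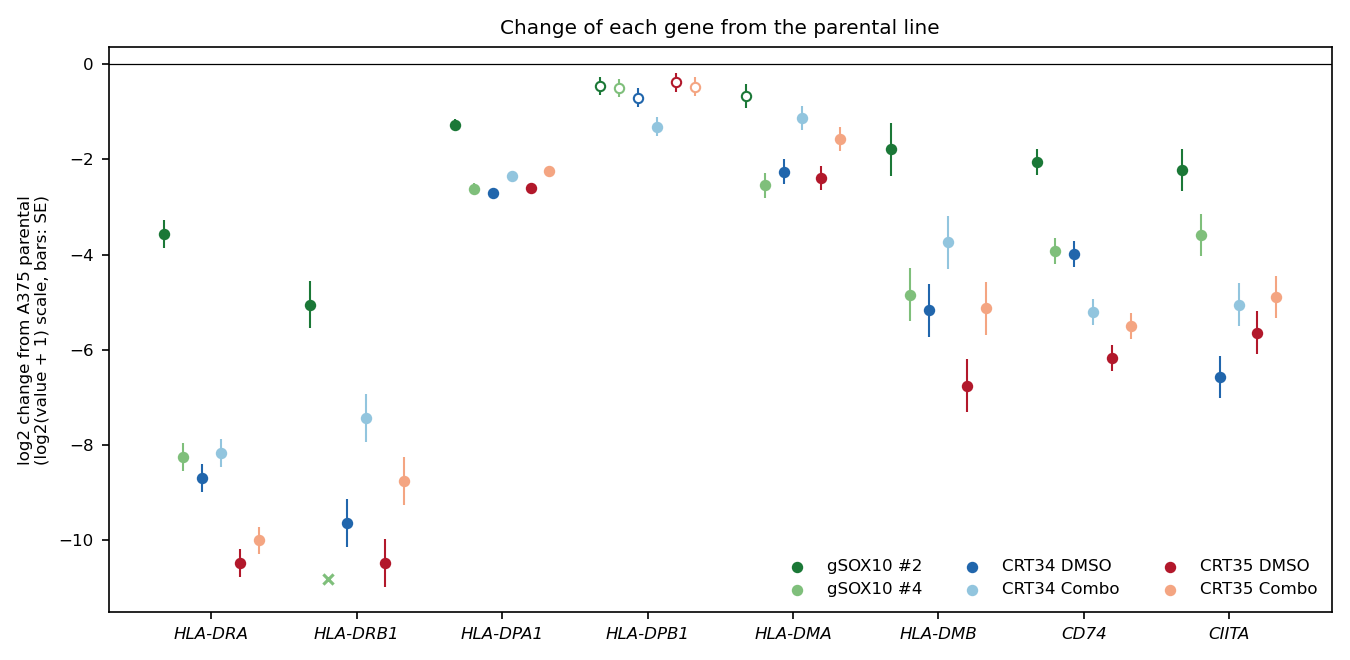
Log2 change of each gene from A375 parental on the log2(value + 1) scale in the 6 derived groups, with bars for the SE, filled points for calls, open points for changes that were not called and a cross for *HLA-DRB1* in gSOX10 #4, which was listed at 0. *HLA-DRA* and *HLA-DRB1* fell most and *HLA-DPB1* least.

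The knockout clones differed from each other. In gSOX10 #4, 7 of the 8 genes were called lower than in gSOX10 #2, against 7.06% of all genes, with *HLA-DPB1* the exception (log2 difference -0.04, SE 0.20). *HLA-DRA* was 25.8-fold lower in gSOX10 #4 (adjusted p = 2.60e-09), *HLA-DMB* 8.33-fold (adjusted p = 0.000681), *CD74* 3.68-fold (adjusted p = 8.74e-05), *HLA-DMA* 3.66-fold (adjusted p = 4.53e-05) and *HLA-DPA1* 2.54-fold (adjusted p = 7.96e-08). *CIITA* itself was 2.59-fold lower (adjusted p = 0.0338). That call was lost without a filter on low values (adjusted p = 0.0536), after quantile normalization (0.104), and when any clone library other than gSOX10 #2 replicate 2 was left out (0.0508 to 0.125). *SOX10* was read at 452 ± 56.5 in gSOX10 #2 and 487 ± 30.6 in gSOX10 #4 (SD, n = 3), and it was not called between them (log2 difference 0.11). With 1 clone per guide, guide and clone cannot be told apart.

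In CRT34, 3 of the 8 genes were called higher in Combo than in DMSO (2.84% of all genes) and 1 lower (2.26%). *HLA-DMA* rose 2.19-fold (log2 change 1.13, SE 0.26, adjusted p = 0.0107), and its Combo values lay above those in DMSO. *CIITA* rose 2.86-fold (1.51, SE 0.44, adjusted p = 0.0426), although its values overlapped and the call was lost with quantile normalization (adjusted p = 0.112) and without a filter on low values (0.0620). *HLA-DRB1* was called higher (2.20, SE 0.50, adjusted p = 0.0112) on values of a few reads per library. *CD74* fell 2.34-fold (-1.23, SE 0.27, adjusted p = 0.00958). All 4 calls rest on the spread pooled over 7 groups. None was made when only the CRT34 libraries were fitted (adjusted p from 0.173 to 0.283), and none without CRT34 Combo replicate 2. Without CRT34 DMSO replicate 1 the calls of *HLA-DMA* (0.81) and *CD74* (-0.98) fell under 2-fold, as did that of *HLA-DMA* without CRT34 Combo replicate 1 (0.99). Without CRT34 DMSO replicate 2 those of *HLA-DRB1* and *CIITA* were lost, and without CRT34 DMSO replicate 3 or CRT34 Combo replicate 3 that of *CIITA* was lost. In the last case *HLA-DMB* was called (1.94, adjusted p = 0.0351), though not with all libraries (1.43, adjusted p = 0.131).

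In CRT35, none of the 8 genes was called by limma between Combo and DMSO, where 1.14% of all genes were called. An unadjusted p under 0.05 was found for 5, all of them higher with the inhibitors. How many of all genes lay under that p was not counted, here or for the difference of drug effects below. *HLA-DMB* had 3.09 times its DMSO level (log2 change 1.63, SE 0.56, adjusted p = 0.162) without overlap, and *HLA-DMA* 1.77 times (0.83, SE 0.26, adjusted p = 0.125), also without overlap. *CIITA* values overlapped (0.75, SE 0.44, adjusted p = 0.444). The drug effects of the lines were compared directly as well. None of the 8 differences was called (0.0104% of all genes were called) and 1 had an unadjusted p under 0.05, that of *CD74*. The *CD74* change was -1.23 in CRT34 and 0.67 in CRT35, a difference of 1.89 (SE 0.39, adjusted p = 0.115). It was called without CRT34 Combo replicate 3 (2.16, adjusted p = 0.00727), without CRT35 DMSO replicate 1 (2.15, adjusted p = 0.0491) and without both of these (2.42, adjusted p = 0.00192).

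**Figure D3:**
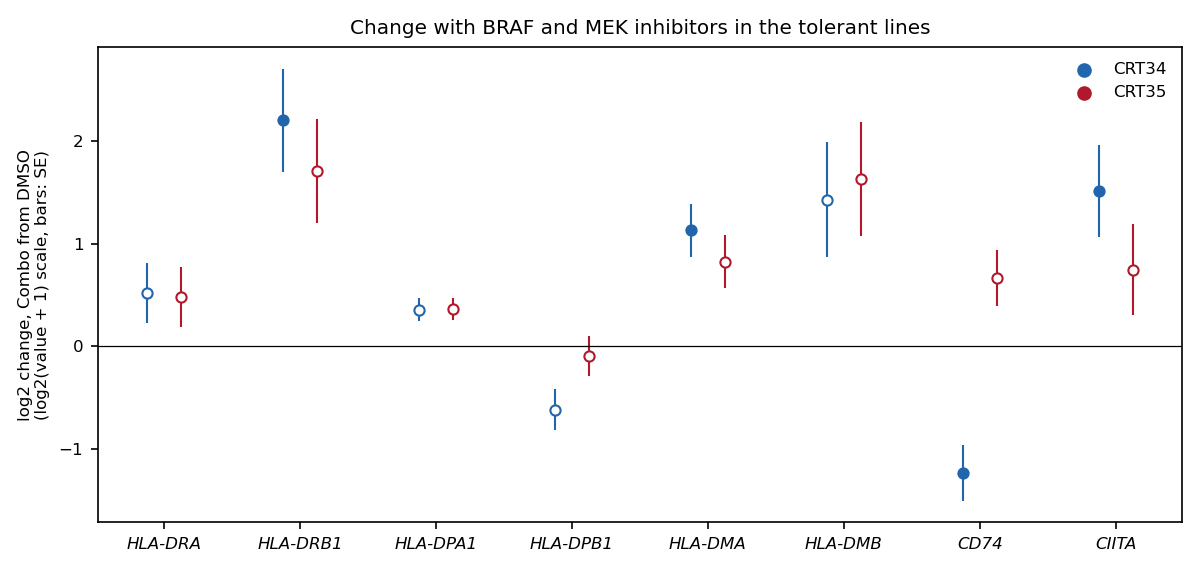
Log2 change of each gene in Combo from DMSO on the log2(value + 1) scale in CRT34 and CRT35, with bars for the SE, filled points for calls and open points for changes that were not called. *CD74* lies at -1.23 in CRT34 and 0.67 in CRT35, and the fitted values of the other genes have the same sign in both lines.

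The tolerant lines differed mostly in *HLA-DRA* and *CD74*. Without inhibitors, CRT35 had 3.46-fold less *HLA-DRA* (log2 difference -1.79, SE 0.29, adjusted p = 0.000359) and 4.55-fold less *CD74* (-2.18, SE 0.27, adjusted p = 2.54e-05) than CRT34, the 2 members called, both lower (4.42% of all genes lower and 3.69% higher). With all libraries *HLA-DMB* (-1.58, adjusted p = 0.0632) and *CIITA* (0.93, adjusted p = 0.184) overlapped and were not called. Of 6 fits with 1 library left out, *HLA-DMB* was called in 1 and *CIITA* in 2. Without CRT34 DMSO replicate 1, *HLA-DMB* (-2.46, adjusted p = 0.000925) and *CIITA* (1.41, adjusted p = 0.0392) were called. *CIITA* was also called without CRT35 DMSO replicate 1 (1.39, adjusted p = 0.0482). With inhibitors, *HLA-DRA* was 3.57-fold lower in CRT35 (-1.84, SE 0.29, adjusted p = 0.000313), the only member called (3.74% of all genes lower and 3.17% higher), whereas *CD74* overlapped (-0.29, SE 0.27, adjusted p = 0.535). With all libraries *HLA-DRB1* (-1.32, adjusted p = 0.0885), *HLA-DMB* (-1.38, adjusted p = 0.109) and *HLA-DPB1* (0.85, under 2-fold) were not called. Without CRT34 Combo replicate 3, *HLA-DRB1* (-1.68, adjusted p = 0.0471) and *HLA-DMB* (-1.89, adjusted p = 0.0357) were called. Without CRT35 Combo replicate 1 *HLA-DPB1* was called higher (1.03).

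Over the 21 libraries, *CIITA* correlated with *HLA-DPA1* at r = 0.898, with *HLA-DRA* at 0.893 and with *HLA-DPB1* at 0.531 (Pearson, log2 values). Over the 18 libraries without the parental ones these were 0.735, 0.727 and 0.242. *HLA-DPB1* correlated with *HLA-DPA1* at 0.493 and, without parental libraries, at 0.0821. *HLA-DMA* and *HLA-DMB*, whose products pair, had r = 0.913 and 0.838. These are descriptions: libraries of a group share their line and condition and are not independent points.

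The other class II chain genes were low outside the parental line. All 7 of the list, *HLA-DRB5*, *HLA-DQA1*, *HLA-DQB1*, *HLA-DQA2*, *HLA-DQB2*, *HLA-DOA* and *HLA-DOB*, were called lower in 5 of the 6 comparisons with parental cells, and 6 in CRT34 Combo, where *HLA-DOB* changed by -0.74. *HLA-DQA1*, *HLA-DQA2*, *HLA-DQB2* and *HLA-DOA* reached the minimum value only in parental libraries, and *HLA-DRB5* in these and 1 other, so they had to differ once kept and the count is a description only. The shares of all genes called lower were 7.35% to 10.2%. The call of *HLA-DOB* in CRT35 DMSO was lost with equal totals (adjusted p = 0.0513). *HLA-DOA*, a chain of the HLA-DM inhibitor HLA-DO, averaged 342 in parental cells and at most 2.29 elsewhere, and *HLA-DRB5* 476 and at most 8.10. *HLA-DQB1* averaged 204 in parental cells, 7.08 in gSOX10 #2 and 9.81 in CRT34 DMSO, and it was listed at 0 in both CRT35 groups. *HLA-DOB*, the partner chain, averaged 27.96 in parental cells and 5.37 to 15.9 elsewhere.

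The factors that hold CIITA on the promoter were mostly not called. In the comparisons with parental cells 7.35% to 10.2% of all genes were called lower and 11.8% to 20.1% higher. The counts of these few factors lie near that background. Of *RFX5*, *RFXAP*, *RFXANK*, *NFYA*, *NFYB*, *NFYC* and *CREB1*, limma called 1 in 1 comparison with parental cells, *RFXAP* in gSOX10 #4, with values of 546 to 674 in parental cells and 257 to 314 in the clone (log2 change -1.04, SE 0.15, adjusted p = 2.84e-05). With equal totals its change of -0.94 was under 2-fold. *RFX5*, the DNA-binding subunit of RFX, averaged 8691 in parental cells, 9447 in gSOX10 #4 and 7015 in CRT35 DMSO. An unadjusted p under 0.05 was found by limma for 3 or 4 of the 7 in each comparison, in the lower direction. The share of all genes under that p was not counted.

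Of 8 genes of interferon gamma signaling toward *CIITA*, 0 to 3 were called higher in each derived group and none lower. The list includes *SOCS1*, which restrains the signal and was the 1 gene called in gSOX10 #2. Of all genes, 11.8% to 20.1% were called higher in these groups. The share called lower was 7.35% to 10.2%, so that a count of 0 in 8 lies near the background. *IRF1*, a factor that acts on the *CIITA* promoter, was called higher in CRT35 DMSO and CRT35 Combo (log2 change 1.23 in each). The receptor gene *IFNGR1* was called higher in CRT34 DMSO (1.62), CRT34 Combo (1.01) and CRT35 Combo (1.06). *SOCS1*, a feedback inhibitor of the pathway, was called higher in gSOX10 #2 and all 4 CRT groups from low values, 0 to 3.41 in parental libraries and 58.2 to 111 in CRT35 Combo. No parental library reached the filter minimum, so *SOCS1* was kept through derived libraries and its calls are a description only. *IFNGR2*, *JAK1*, *JAK2*, *IRF2* and *USF1* were not called in any of the 6 comparisons. By limma, 4 to 6 of the 8 had an unadjusted p under 0.05 in the CRT groups, all higher. In gSOX10 #2 it was 3, 2 higher and 1 lower, and in gSOX10 #4 it was 1, higher. How many of all genes lay under that p was not counted. With equal totals *JAK2* and *IFNGR1* were called higher in CRT35 DMSO, and *JAK1* was called higher in CRT35 Combo under both other scalings.

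Endosomal enzymes, which cut antigen and CD74, moved in both directions. Of 8, 5 were called higher in gSOX10 #2, 1 in gSOX10 #4, 3 in CRT34 DMSO, 4 in CRT35 DMSO, 4 in CRT34 Combo and 5 in CRT35 Combo, and 1 was called lower in each. In the same order 15.9%, 11.8%, 15.7%, 15.7%, 19.1% and 20.1% of all genes were called higher, and 7.35% to 10.2% lower. *CTSB* was called higher in all 6 groups, by 2.20 to 4.63-fold, and *CTSV* lower in all 6 (log2 change from -1.02 to -3.56), a call lost with equal totals in gSOX10 #2 (adjusted p = 0.0594) and CRT34 Combo (0.0706). *CTSS*, the main protease that trims CD74 in antigen-presenting cells, averaged 297 in parental cells, 641 in gSOX10 #2 and 193 in gSOX10 #4, and was called higher in the 4 CRT groups, 42.4-fold in CRT34 DMSO (adjusted p = 1.69e-05). In CRT34 Combo its values ran from 579 to 11687 and it was called lower than in CRT34 DMSO (-2.62, adjusted p = 0.0416), though not with equal totals (adjusted p = 0.0501). *LGMN* was called higher in the 4 CRT groups, *CTSH* in gSOX10 #2 and both Combo groups, *CTSD* in gSOX10 #2 and CRT35 Combo, *CTSL* in gSOX10 #2 and CRT35 DMSO, and the thiol reductase gene *IFI30* in gSOX10 #2. The *CTSH* call in CRT34 Combo was lost with quantile normalization (0.99), and *CTSL* was called higher in gSOX10 #4 and CRT35 Combo under both other scalings. *MARCHF1*, a ubiquitin ligase that removes class II from the surface, averaged 42.9 in parental cells and was called higher in gSOX10 #2 (1.40, lost with quantile normalization, adjusted p = 0.118) and in CRT34 Combo against CRT34 DMSO (2.01), while *MARCHF8* and the CD74 intramembrane protease gene *SPPL2A* were not called.

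CD74 is also the surface receptor of the cytokine MIF. *MIF* and *DDT* were not called in any comparison with parental cells. The co-receptor gene *CD44* averaged 55986 in parental cells and was called higher in CRT34 DMSO (1.08), *CXCR2* was called higher in the 4 CRT groups from a parental mean of 2.90, and *CXCR4* averaged 52.5 in CRT34 DMSO and 9.72 in CRT34 Combo and was listed at 0 in all other libraries. For scale, 11.8% to 20.1% of all genes were called higher against parental cells and 7.35% to 10.2% lower. Among T cell ligands, 6 of 7 could be tested, since *CD80* did not reach the minimum. *PDCD1LG2*, which encodes the checkpoint ligand PD-L2, was called higher in all 6 groups, from 34.5 in parental cells to 1661 in CRT35 Combo. *ICAM1* and *CD40* were called higher in the 4 CRT groups, and *CD40* lower in gSOX10 #4 (-2.38). *CD86* was called higher in 5 groups at means of at most 9.84. It reached 10 in only 3 libraries, the fewest that the filter allows, so these calls may follow in part from the filter. *CXCR2*, low in parental cells, was also kept through derived libraries, and its calls are a description only. *ICOSLG* was called higher in CRT34 DMSO, CRT35 DMSO and CRT35 Combo, and *CD274* higher in both CRT34 groups and lower in gSOX10 #2 (-1.22). Quantile normalization lost the calls of *PDCD1LG2* in gSOX10 #2, *CD274* in CRT34 DMSO, *ICOSLG* in CRT35 Combo and *CXCR2* in CRT35 DMSO, and under both other scalings *CD44* was called higher in gSOX10 #2 and CRT35 Combo.

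MHC class I, which shows peptides from the cytosol to CD8+ T cells, had genes called higher in 5 of the 6 derived groups. NLRC5, the class I counterpart of CIITA, was read at 749 to 906 in parental libraries, 1280.4 to 1411 in gSOX10 #2, 743 to 1039 in gSOX10 #4 and 1779 to 3135 in the CRT libraries. It was called higher in the 4 CRT groups, by 2.55 to 2.79-fold (adjusted p at most 1.50e-05). *HLA-B* rose from 1896 to 2757 in parental libraries to 23671 to 31138 in CRT35 Combo, 12.3-fold (log2 change 3.63, SE 0.22, adjusted p = 2.38e-10). Of 10 class I genes, 4 were called higher in gSOX10 #2 (15.9% of all genes were called higher), 5 in CRT34 DMSO (15.7%), 6 in CRT35 DMSO (15.7%), 5 in CRT34 Combo (19.1%) and 8 in CRT35 Combo (20.1%), and none lower. In gSOX10 #4 limma called none of the 10 (11.8% of all genes higher), and 5 had an unadjusted p under 0.05. How many of all genes lay under that p was not counted. *HLA-B*, *HLA-C* and *B2M* were called in each group except gSOX10 #4, and *TAPBP* in each except gSOX10 #4 and CRT34 Combo. *TAP1* was called in CRT35 DMSO and both Combo groups, *HLA-E* and *PSMB9* in CRT35 Combo, and *TAP2* and *PSMB8* in none. The 10 class I promoters in RefSeq, of 8 genes, held no X box core and 5 held a Y box core. The X box core was matched in only 6 of 14 promoters of class II chain genes and *CD74*. Its absence therefore does not show that class I promoters lack an X box. No called direction of a class II or class I gene turned under rescaling to equal totals or quantile normalization, which moved the median log2 change of all genes by -0.18 to 0.12 against parental cells. With equal totals *PSMB9* was also called higher in CRT35 DMSO.

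**Figure D4:**
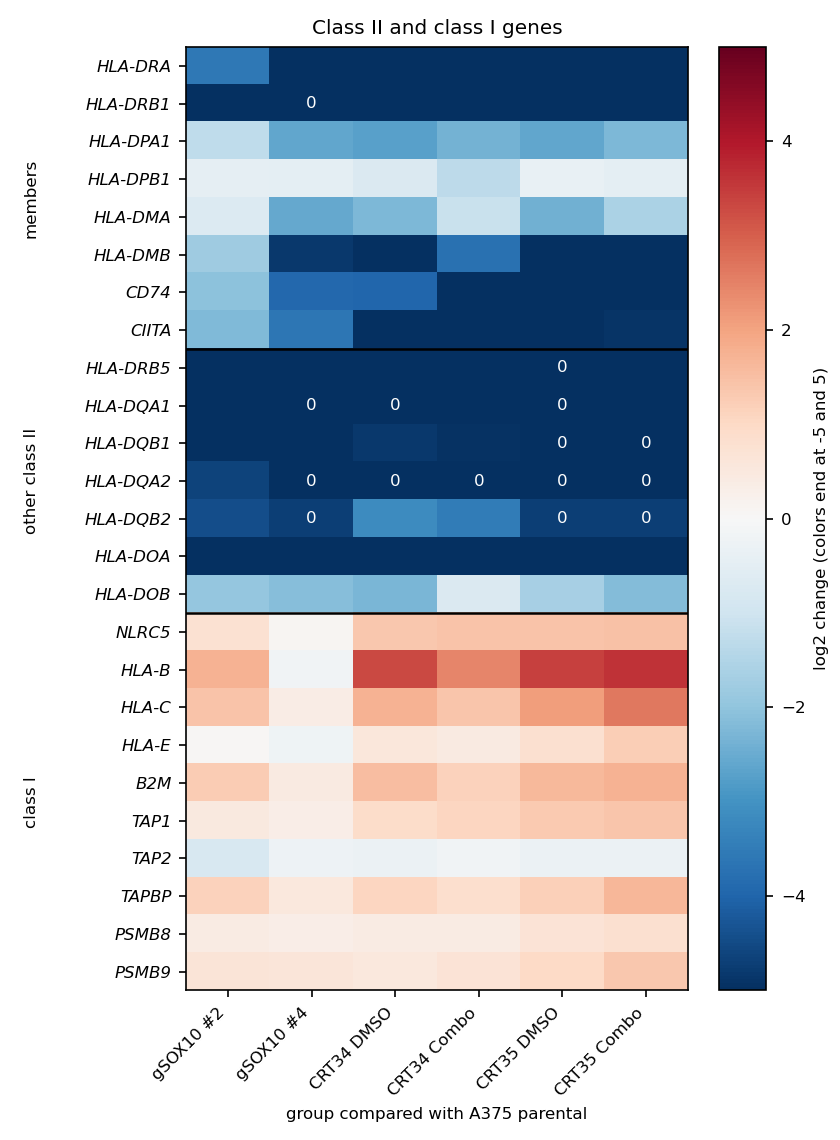
Log2 change from A375 parental of the 8 genes, 7 other class II genes and 10 class I genes (rows) in the 6 derived groups (columns), in blue for lower and red for higher values, with colors ending at -5 and 5 and a 0 where the group was listed at 0. Class II rows are blue and class I rows mostly red, strongest for *HLA-B*, with little color for class I in gSOX10 #4.

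Since class II is a leukocyte product, leukocyte genes were read as well. *MS4A1*, *CD79A*, *AIF1* and *SPI1* did not reach a value of 10 in 3 libraries, with *PTPRC*, the common leukocyte gene CD45, at 0 to 0.853 in parental libraries, where class II was highest. Of the 13 markers, 9 could be tested. Each derived group had 3 or 4 of these called higher and 1 to 3 called lower. Among all genes tested, 11.8% to 20.1% were called higher in these groups and 7.35% to 10.2% lower. *CD68*, *ITGAX* and *CSF1R* were called higher in all 6 groups and *LYZ* lower in all 6, from 313 to 469 in parental libraries to 44.3 to 63.6 in gSOX10 #2, 10.7 to 16.8 in gSOX10 #4 and 2.56 to 12.1 in the CRT libraries. *CD83* was called lower in gSOX10 #2, both CRT34 groups and CRT35 Combo, and *BATF3* in both CRT34 groups. *PTPRC* was called higher in CRT35 DMSO and both Combo groups, at 1.92 to 44.5. It reached 10 in 5 libraries, none of them parental. The gene was thus kept through groups where it was high, and these calls are a description only. The call of *PTPRC* in CRT35 DMSO was lost with quantile normalization and that of *CD83* in CRT35 Combo with equal totals, and *BATF3* was called lower in CRT35 Combo with quantile normalization. *CD14* and *CD163* were not called. The summed level of the list was 2293 to 2563 in parental libraries and 4169 to 17969.5 in the derived ones. That sum is set by the most abundant genes of the list and does not measure the part of leukocytes. The part of other cells in the class II values was not tested.

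Outside these lists, the 5 protein-coding genes whose levels followed the mean of the 8 genes most closely over the 21 libraries were *KRT14* (r = 0.961), *KRT6B* (0.957), *PRSS33* (0.956), *CADM4* (0.949) and *PPP1R1B* (0.942), among 8615 genes compared. *KRT14*, a keratin of basal epithelium, averaged 333 in parental cells, 63.6 in gSOX10 #2, 1.29 in gSOX10 #4 and at most 0.400 in the CRT groups. *CADM4*, a cell adhesion molecule, averaged 6311 in parental cells, 1441 in gSOX10 #2, 523 in gSOX10 #4 and 409.9 to 716 in the CRT groups. The genes nearest to *CIITA* were *RNF157* (0.937), *DNAH9* (0.934), *CALB2* (0.926), *UGT8* (0.924) and *PRSS33* (0.923). *UGT8*, an enzyme of galactolipid synthesis, averaged 2375 in parental cells, 739 in gSOX10 #2, 550.2 in gSOX10 #4 and 263 to 349 in the CRT groups. The ranking describes these libraries and was not tested.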

How the data were processed

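RNA-seq of A375 and its derivatives gave 1 table of genes per library. Per the labels, reads were processed with STAR 2.6.1a, RSEM, Picard and DESeq2 on GRCh38, and the deposited signal is a gene's normalized read count, divided by the authors by a factor per library and apparently by a further factor per gene. These values are not counts, so depth was only estimated, from the spacing of low values, and depth limits what can be said of genes near 0. The labels and the study name different library kits, so strand use is unsettled.

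A gene was tested where 3 or more libraries read 10 or higher, which left 19290 of the 32889 genes above 0. limma 3.58.1 in R 4.3.3 (moderated test, trend, two-sided) was fitted to log2(value + 1) over 21 libraries and 7 groups, with Benjamini-Hochberg adjustment over all genes kept. Fold changes are on that scale and understate changes of low genes. The script was tested on simulated data. Symbols and positions are from GENCODE 44. The members and lists were chosen with earlier results of these data known, and some listed genes are not reported here. All 8 members are named in each comparison, with the listed genes called or low in some comparison and, among protein-coding genes outside the lists whose group means span at least 1 on the log2 scale, the 5 that correlate best with the mean of the members' centred log2 values and with *CIITA*.

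Alternatives were another pseudocount (10), no filter, fitting only the groups compared, equal totals, quantile normalization, the replicate number as a block, each library left out in turn and, chosen after seeing the data, leaving out CRT34 Combo replicate 3 and CRT35 DMSO replicate 1 together. In 9 comparisons whose titles number the libraries, deviations of same-numbered libraries were compared. Every r was over 0.1 in 1 of them, CRT35 Combo against CRT34 Combo (r = 0.218, 0.253 and 0.2075), so these were taken as paired, and the block changed no member's call there.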

Additional observations from a re-analysis of the deposited data

Results flagged for a closer look

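The knockout clones, which carry the same contrast against parental cells, differed in 7 of the 8 genes by limma. gSOX10 #4 lay below gSOX10 #2 by a log2 difference of -4.69 for *HLA-DRA*, -1.34 for *HLA-DPA1*, -1.87 for *HLA-DMA*, -3.06 for *HLA-DMB*, -1.88 for *CD74* and -1.37 for *CIITA*. The *CIITA* call held in 1 of 6 fits with a library left out. It was also lost with quantile normalization and without a filter on low values. The doubt about the cell line named in the gSOX10 #4 titles applies here too. For *HLA-DRB1* the fitted difference of -5.76 depends on the pseudocount, since gSOX10 #4 was listed at 0, and it is no bound.

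The tolerant lines differed in *HLA-DRA*, which was lower in CRT35 than in CRT34 both without inhibitors (-1.79) and with them (-1.84), and in *CD74*, which was lower in CRT35 without inhibitors (-2.18).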

How the results depend on the processing

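The 42 called member changes from parental cells kept direction in 513 of 513 refits and the call in 511. Both losses were *HLA-DMA* in CRT34 Combo, without CRT34 Combo replicate 3 alone and with CRT35 DMSO replicate 1 left out as well. Between Combo and DMSO in CRT34 the 4 members called became 2 with a pseudocount of 10, 3 with quantile normalization or no filter, 0 with only the groups compared, and 0 to 4 with single libraries left out. With the replicate block 3 remained, *CIITA* being lost (adjusted p = 0.0524 by limma), and the block changed no other member's call. Leaving out single libraries gave 1 to 3 members between CRT35 and CRT34 Combo, 2 to 4 between CRT35 and CRT34 DMSO, and 0 to 1 for the difference of drug effects. Without both doubted libraries, a choice made after seeing the data, these were 3 for Combo and 1 for the difference of drug effects.

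No called value reversed. For the difference of drug effects, *HLA-DMB* turned to -0.0589 with a pseudocount of 10 and to -0.199 without the doubted libraries, and *HLA-DPA1* to -0.0478 with equal totals, -0.037 with quantile normalization and -0.0805 without the doubted libraries. *HLA-DPB1* between the clones turned to 0.03 with quantile normalization. With single libraries left out, that value ran from -0.2095 to 0.0927, *CIITA* between CRT35 and CRT34 Combo from -0.2673 to 0.5027, *HLA-DMA* between CRT35 and CRT34 DMSO from -0.4556 to 0.0616 and *HLA-DPB1* between CRT35 Combo and DMSO from -0.2619 to 0.092. The difference of drug effects ran from -0.3046 to 0.2137 for *HLA-DRA*, -0.847 to 0.0917 for *HLA-DRB1*, -0.0655 to 0.0692 for *HLA-DPA1*, -0.5515 to 0.0146 for *HLA-DMA* and -0.3212 to 1.0782 for *HLA-DMB*. The cause was not tested.

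Over all genes, with only the groups compared, 983 calls between CRT34 Combo and DMSO became 36, 219 between CRT35 Combo and DMSO became 76, 1333 between CRT35 and CRT34 Combo became 800, and 2 for the difference of drug effects became 1. Without the doubted libraries the first, second and last were 1559, 350 and 288.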
